A study of Mus musculus with 2 samples.

Results

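The potassium channel genes were taken as every gene symbol that begins with Kcn in the gene lists of both libraries, with 2 such symbols left out by the rule. This gave 91 members of 19454 symbols, and the rule used no measured value. All 91 are protein coding in the GENCODE M21 annotation of mm10. Over both libraries 5 members had no molecule counted (Kcnh8, Kcnmb3, Kcnt2, Kcnv2 and Kcnk5), 17 had fewer than 10, and 67 reached the minimum of 30 that a gene needed to be counted in a comparison. The remaining 24 members are described only where stated.

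Potassium channels let potassium leave the cell and so set the resting potential, end action potentials and limit firing. Voltage-gated channels (Kv) open on depolarisation, inward rectifiers (Kir) and tandem-pore leak channels hold the resting potential, and calcium-activated channels link calcium entry to repolarisation. Auxiliary subunits, among them the Kv beta subunits and the KChIP proteins, carry no pore and change the gating and surface level of the channels they bind. Neurons combine many of these genes, while glia, choroid plexus epithelium, muscle and epidermis each use few.

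The study placed implants with a flat or a micropillar surface, the latter patterned with small posts, in nude mice, which lack mature T cells. It deposited 1 spatial transcriptomics library from each: 1 from nude mice with the flat implant and 1 from nude mice with the micropillar implant. Both are labelled as bone and as formalin-fixed, paraffin-embedded sections, and both groups share the nude genotype and carry an implant. The number of mice behind each library is not given in the sources used here. With 1 library a group there was no replicate check, so no test between libraries was made, no p-value is given, and every interval is a 95% interval that covers counting error only.

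A spot is a small area of the section that can hold several cells, and its RNA molecules were counted by unique molecular identifiers (UMIs). A spot was kept at 100 UMIs or more. The flat library kept 2681 of 3161 spots with 2263345 UMIs, and the micropillar library 3064 of 3303 with 3173632. Levels are UMIs summed over a set of spots, divided by all UMIs of those spots and scaled to 1000000 (CPM). The Kcn genes together had 11828 UMIs in the flat library (5226 CPM, 5132 to 5321) and 15011 in the micropillar library (4730 CPM, 4655 to 4806). The libraries shared 2135 spot barcodes.

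Spots were placed in classes by marker genes that hold no Kcn gene. Spots of 1 class are areas rich in those markers, not purified cells, and fewer cells of a type and less RNA per cell cannot be told apart in them. Cortical marker spots numbered 397 in the flat versus 341 in the micropillar library, striatal 273 and 243, white matter 193 and 291, choroid plexus 44 and 54, muscle 245 and 30, skin 322 and 320, and bone 261 and 240. The remaining kept spots met no class or 1 of 3 classes used to keep other tissue out. Spots of the 4 neural classes, cortical to choroid plexus, outnumbered those of the bone class in both libraries, although bone is the labelled tissue. The bone class rested on type I collagen, whose 2 genes gave 95.9% of its marker UMIs (flat) and 95.2% (micropillar), and which dermis and tendon also express. The osteoblast gene Bglap had 127 and 236 UMIs there and the osteoblast regulator Sp7 had 0 in both. Bone spots are therefore called type I collagen spots here.

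The sequence upstream of 3 members is shown first. They were chosen after their values were seen, as genes higher in 1 class whose RefSeq start lies at or before every GENCODE start. Each run is the 250 bases before the start in RefSeq (GRCm38.p6, the mm10 build), 5′ to 3′ on the gene's strand. Capitals mark matches, on either strand, to the letters of the TATA box (TATAAA), the CCAAT box (CCAAT), an E-box (CAGCTG, which reads the same on both strands) or the GC box (GGGCGG), none of which overlap here. Kcnj13 leads the choroid plexus values and lies at chr1:87394730-87394979 on the minus strand, Kcna4 and Kcnip2 are among the members higher in striatal spots and lie at chr2:107290339-107290588 on the plus strand and chr19:45816064-45816313 on the minus strand.
Kcnj13: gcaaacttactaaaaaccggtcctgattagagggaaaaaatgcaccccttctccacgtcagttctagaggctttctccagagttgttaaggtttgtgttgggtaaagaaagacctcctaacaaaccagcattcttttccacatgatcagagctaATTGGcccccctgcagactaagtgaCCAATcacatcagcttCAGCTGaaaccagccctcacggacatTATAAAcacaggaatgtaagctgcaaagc
Kcna4: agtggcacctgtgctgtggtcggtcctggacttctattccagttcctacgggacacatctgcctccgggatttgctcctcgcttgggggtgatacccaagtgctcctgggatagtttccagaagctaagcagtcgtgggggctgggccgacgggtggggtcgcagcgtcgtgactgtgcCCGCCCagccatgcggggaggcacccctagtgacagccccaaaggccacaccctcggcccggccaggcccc
Kcnip2: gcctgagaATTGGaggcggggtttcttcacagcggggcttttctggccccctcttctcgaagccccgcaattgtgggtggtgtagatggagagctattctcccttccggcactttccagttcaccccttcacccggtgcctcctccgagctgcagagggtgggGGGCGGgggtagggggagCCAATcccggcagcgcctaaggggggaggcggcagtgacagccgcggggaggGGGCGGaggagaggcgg
The Kcnj13 window holds 1 TATAAA at position -29 from the start, 2 matches to CCAAT and 1 to CAGCTG, with a GC content of 45.2%. The Kcna4 window holds 1 match to GGGCGG and has a GC content of 65.2%. The Kcnip2 window holds 2 matches each to CCAAT and GGGCGG and has a GC content of 66.8%.

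RefSeq gave 90 such windows for 66 of the 91 members. TATAAA was in 3.33% of the members' windows and in 12.4% of all 32851 windows, so the Kcnj13 match is 1 of 3 among the members. GGGCGG was in 45.6% of the members' windows and 32.7% of all, CAGCTG in 23.3% and 13.0%, and CCAAT in 27 of the members' 90 and 33.8% of all. The median GC content was 58.8% over the members' windows and 52.4% over all. A match of letters is a description, not a site.

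Of the 7 classes, striatal marker spots had the highest summed Kcn level in both libraries, and muscle, skin and type I collagen spots had the 3 lowest. It was 7323 CPM in striatal spots of the flat library (7018 to 7638) and 6706 in the micropillar library (6363 to 7064). Cortical spots had 6528 CPM (6360 to 6700) and 6024 (5844 to 6208). The intervals of these 2 classes did not overlap within a library. Their order rested on 1 auxiliary gene, Kcnab1, which carries no pore. It gave 2450 and 1999 CPM of the striatal level in the flat and micropillar libraries, and 317 and 336 CPM of the cortical level. Without Kcnab1 the cortical level was the higher in both libraries.

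**Figure D1:**
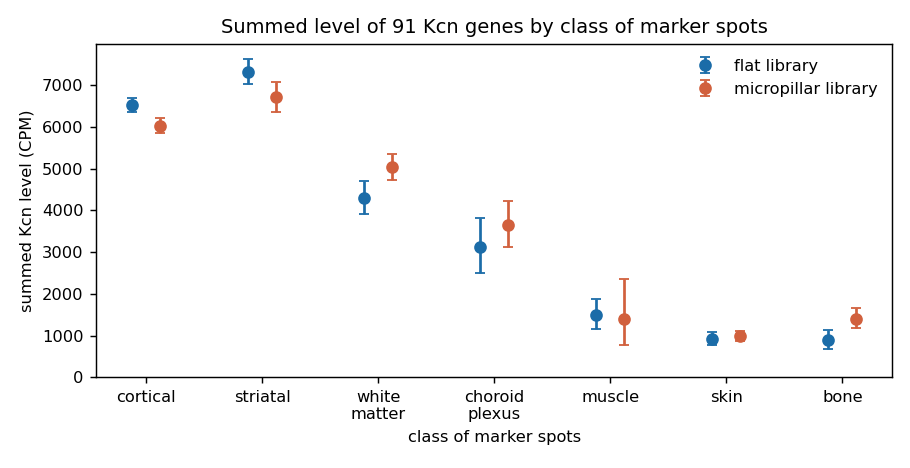
Summed level of the 91 Kcn genes (CPM) in 7 classes of marker spots, flat library in blue and micropillar library in orange. Points are levels and bars are exact Poisson 95% intervals, which cover counting error only; the striatal and cortical points sit at 6024 CPM or higher and the muscle, skin and bone (type I collagen) points at 1491 or lower.

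White matter spots had 4300 CPM (3913 to 4714) in the flat library versus 5042 (4739 to 5359) in the micropillar library. Set against all other kept spots this was 0.816 times the level in the flat library (0.741 to 0.896) and 1.07 times in the micropillar library (1.00 to 1.14), so the direction differed between the libraries. Choroid plexus spots had 3110 CPM (2507 to 3814) and 3649 (3125 to 4235). Their levels lay below white matter in both libraries.

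Muscle spots had 1491 CPM (1160 to 1887) and 1397 (764 to 2344), the second from 14 Kcn UMIs. Skin spots had 911.5 CPM (769 to 1073) and 982.5 (859 to 1119), which is 0.164 and 0.196 times the level of the other spots. Type I collagen spots had 887 CPM (677 to 1142) and 1402 (1183 to 1649). These intervals did not overlap between the libraries, and the ratio of micropillar over flat was 1.58 (1.16 to 2.17). White matter markers moved with it, at 576.5 CPM in the flat versus 841 CPM in the micropillar type I collagen spots. Cortical markers did too, at 88.7 and 145 CPM. Striatal markers, at 266 and 251 CPM, and choroid plexus markers, at 163 and 116 CPM, moved the other way. The part of neural tissue in the difference was not tested.

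Depth differed between the classes. The median UMIs per spot were 2179 and 1898 in cortical, 1035 and 777 in striatal, 162 and 244 in muscle and 224 and 358.5 in type I collagen spots of the flat and micropillar libraries. Where only spots with at least 500 UMIs were used, the classes were drawn anew. The pooled Kcn level in muscle spots was then 0.706 times that of the other spots rather than 0.296 times. That class held 9 flat and 31 micropillar spots, which were not a deeper subset of the main 245 and 30. The part of depth in these differences was not tested.

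A member was counted as higher in a class where its level was at least 2-fold that of all other kept spots in both libraries, and the same rule over 11242 genes gave the background. In cortical marker spots 8 of 67 members (11.9%) met it, against 1.56% of all genes. The same 8 members had at least 10 UMIs in the class, against 1.56% of all genes under that added condition. The members' median ratio of pooled levels was 1.43, against 0.889 for all genes tested. They included Kcnf1, Kcnh3, Kcnh5, Kcnh7, Kcnk4, Kcnk12 and Kcnv1.

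Among them were 2 silent voltage-gated subunits, which form no channel alone and modify Kv2 channels. Kcnv1 (chr15:45106284-45114920, minus strand) had 187 CPM (160 to 218) in cortical spots of the flat library and 99.3 (77.4 to 125.5) in the micropillar library. In the other spots it had 61.0 and 29.97 CPM, so the ratio was 3.07 (2.35 to 4.04) and 3.31 (2.36 to 4.66). Both libraries thus showed a like ratio at unlike levels. Kcnf1 had 74.7 CPM (57.6 to 95.2) and 93.6 (72.4 to 119), 2.60 and 2.75 times the other spots.

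The ether-a-go-go (EAG) family gave 3 of its 5 members with enough UMIs. Kcnh3, an EAG-like channel of forebrain neurons and the family member with the most UMIs, had 221 CPM (190.5 to 254) and 206 (174 to 242), 2.31 and 2.78 times the other spots. Kcnh7, an erg channel, had 109 CPM (88.3 to 133) and 89.4 (68.7 to 114), 2.98 and 3.29 times. Kcnh5 had 56.3 CPM (41.7 to 74.4) and 58.2 (41.7 to 78.9), 3.92 and 2.21 times. The family as a whole had 412.5 and 403 CPM in cortical spots, against 179.5 and 173 in the others.

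The tandem-pore genes gave 2. Kcnk4, the mechanosensitive channel TRAAK (chr19:6923966-6934515, minus strand), had 82.7 CPM (64.7 to 104) and 49.7 (34.6 to 69.1), 4.43 (2.80 to 7.23) and 2.40 (1.52 to 3.77) times the other spots. Kcnk12, of the THIK group, had 99.96 CPM (80.1 to 123) and 65.3 (47.8 to 87.1), 4.22 (2.80 to 6.505) and 2.09 (1.42 to 3.05) times. Both ratios were lower in the micropillar library. When spots were first thinned to 250 UMIs and classed anew, 16 and 28 were cortical. There 3 members met the rule, Kcnab3, Kcng1 and Kcnk4, while the pooled ratio was 1.15 for Kcnh7, 1.32 for Kcnk12 and 1.65 for Kcnv1. With each spot given equal weight 15 members met the rule, but the share of all genes was not computed under these 2 settings.

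Several abundant members were spread more evenly. Kcnj9, a G protein-gated inward rectifier, had 342 CPM (305 to 383.5) and 260 (223 to 300.1) in cortical spots, 2.71 and 1.79 times the others, just outside the rule in the micropillar library. Kcnc4, a fast Kv3 channel, had 207 and 230 CPM, 1.67 and 1.58 times. Kcnk9, the acid-sensitive leak channel TASK-3, had 153 and 173 CPM, 1.32 and 1.45 times.

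In striatal marker spots 11 of 67 members (16.4%) met the rule, against 2.97% of all genes. All 11 also had at least 10 UMIs in the class, against 2.86% of all genes. The members' median ratio was 0.764, below the 0.835 of all genes, so the members that met the rule stood beside many that were not higher. By family, the Kv7 genes together had 979 and 955 CPM in striatal spots against 607 and 520 in the others, while the Kv3 genes of fast-spiking neurons had 249.7 and 202 CPM against 526 and 553. The 11 were Kcnab1, Kcna4, Kcnip2, Kcnd2, Kcnj2, Kcnj4, Kcnq3, Kcnq5, Kcnk2, Kcng1 and Kcng3.

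Kcnab1 (chr3:65109384-65378223, plus strand) encodes the beta subunit that gives Kv1 channels fast inactivation, and it had the most UMIs of any member, 1220 and 1244. Its level in striatal spots was 2450 CPM (2275 to 2635) in the flat versus 1999 (1813 to 2198) in the micropillar library. The other spots had 251 and 277 CPM, so the ratio was 9.76 (8.69 to 10.96) and 7.23 (6.41 to 8.14). At least 1 UMI was in 231 of 273 and 177 of 243 striatal spots. The same held for 170 of 397 and 159 of 341 cortical spots, which were deeper and held 22.6% and 19.1% of its UMIs. In skin spots, where the median depth was 441.5 and 619 UMIs, it was in 4 of 322 and 14 of 320. Striatal spots held 59.5% of its UMIs in the flat library versus 34.2% in the micropillar library. Those spots also held a smaller part of all kept UMIs in the micropillar library, 212633 of 3173632 against 296318 of 2263345.

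Kcna4, the A-type pore Kv1.4 on which that beta subunit acts, had 158.6 CPM (116.5 to 211) and 159.9 (111 to 223) in striatal spots. Its ratio to the other spots was 6.37 (4.18 to 9.70) and 5.57 (3.63 to 8.38). Kcnip2, which encodes the KChIP2 subunit of Kv4 channels, had 260 CPM (205 to 325) and 292 (224 to 374), 5.06 (3.71 to 6.88) and 6.54 (4.76 to 8.91) times. Kcnd2, the Kv4.2 pore that KChIP proteins bind, had 287 CPM (229 to 355) and 259 (195 to 337), 3.28 (2.50 to 4.28) and 2.52 (1.86 to 3.37) times. Each of these 3 genes was more than 2-fold higher in striatal spots of both libraries. Of the members with enough UMIs, 1 of 6 Kv1 and 1 of 3 Kv4 genes met the rule, against 2.97% of all genes. The Kv1 genes together had 499.5 and 399.7 CPM in striatal spots against 486 and 476.5 in the others.

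Inward rectifiers of the Kir2 group gave 2 of the 11. Kcnj2, Kir2.1, had 135 CPM (96.4 to 184) and 118 (76.1 to 174), 2.98 and 3.59 times the other spots. Kcnj4, Kir2.3, had 270 CPM (214 to 336) and 207 (150 to 278), 2.81 and 2.62 times. The inward rectifiers summed gave no such difference, with 813 and 672.5 CPM in striatal spots against 803 and 709 in the others.

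Kcnq5 and Kcnq3, genes of the M-current that restrains repetitive firing, were nearest to the 2-fold line. Kcnq5 had 385 CPM (317 to 462) and 343 (269 to 432), 2.06 and 2.40 times the other spots. Kcnq3 had 206 CPM (157.5 to 264) and 197.5 (142 to 267), 2.02 and 2.54 times. Kcnk2, the mechanosensitive channel TREK-1, had 40.5 CPM from 12 UMIs and 75.2 from 16, 2.34 (1.11 to 4.64) and 5.31 (2.78 to 9.64) times. The silent subunits Kcng1 (12 and 6 UMIs, 3.62 and 3.98 times) and Kcng3 (5 and 9 UMIs, 2.21 and 9.64 times) rested on few UMIs, and the flat interval of Kcng3 was 0.629 to 6.41. Kcng3 had fewer than 30 UMIs outside striatal spots, so it was counted only through the class where it was high.

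**Figure D2:**
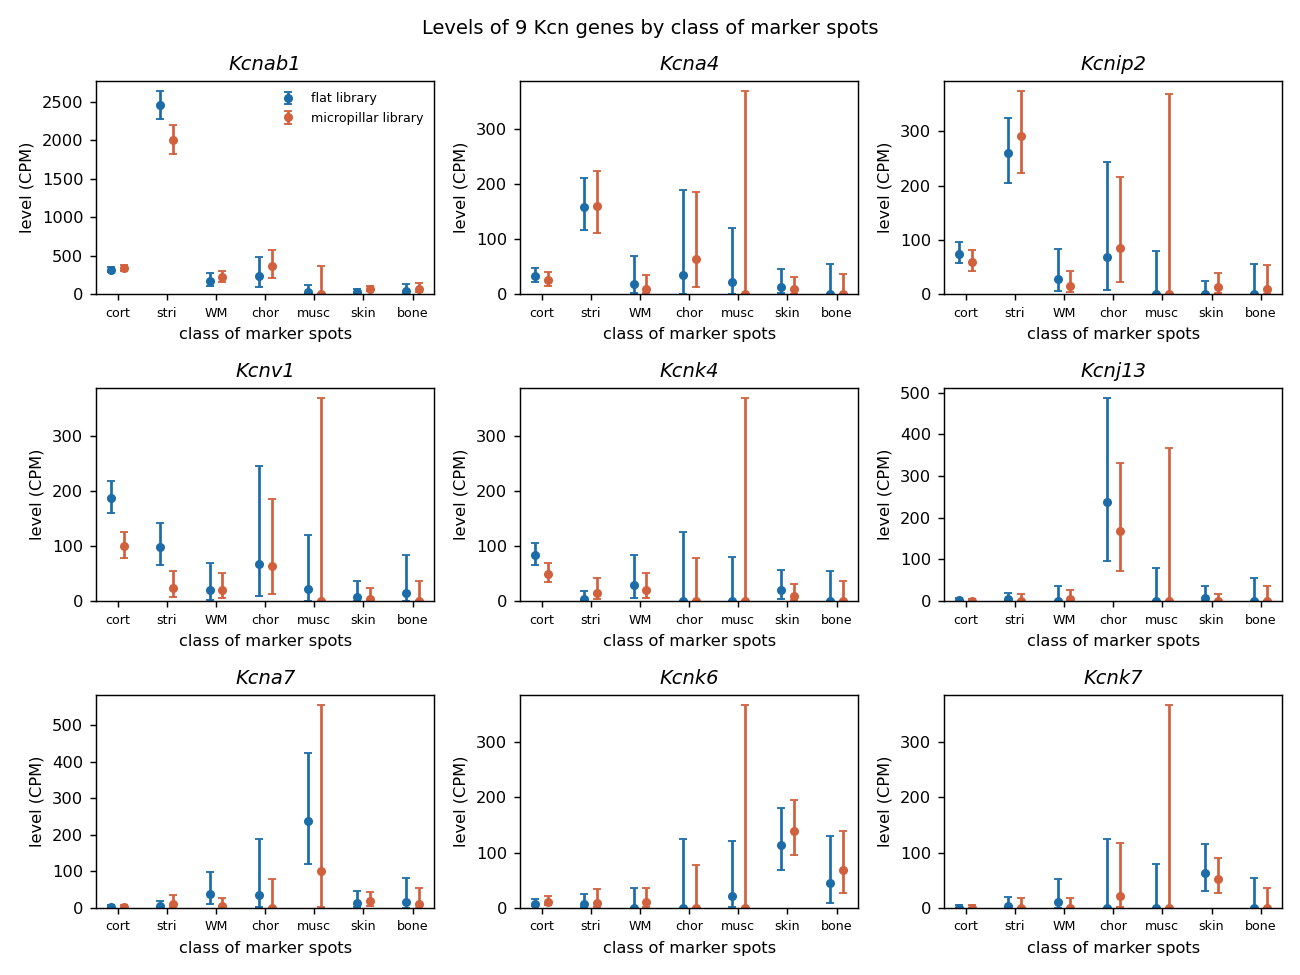
Levels (CPM, each panel with its own scale) of 9 Kcn genes in 7 classes of marker spots, flat library in blue and micropillar library in orange, with exact Poisson 95% intervals that cover counting error only (cort, cortical; stri, striatal; WM, white matter; chor, choroid plexus; musc, muscle; bone, type I collagen). Kcnab1, Kcna4 and Kcnip2 are highest in striatal spots of both libraries, Kcnj13 in choroid plexus spots and Kcnk6 and Kcnk7 in skin spots; the wide micropillar muscle intervals come from 10021 UMIs in 30 spots.

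Striatal and cortical spots were also compared directly, a comparison added after the data were seen. Of the 53 members with at least 30 UMIs in these spots, 6 (11.3%) were at least 2-fold higher in striatal spots in both libraries, against 3.86% of 7823 genes, and 20 (37.7%) were at least 2-fold higher in cortical spots, against 6.77%. The 6 were Kcnab1, Kcna4, Kcnip2, Kcng1, Kcnj2 and Kcnk2. Kcng1 and Kcnk2 had fewer than 30 UMIs in cortical spots and reached the minimum only with their striatal UMIs. Kcnab1 was 7.73 times (6.72 to 8.91) and 5.94 times (5.06 to 6.998) its cortical level, which was 317 and 336 CPM. The flat interval of Kcnk2, 0.951 to 4.96, reached 1. Kcna4 was 4.93 times (3.02 to 8.18) and 6.26 times (3.44 to 11.8) its cortical level. Kcnd2, Kcnj4, Kcnq3 and Kcnq5 did not meet the rule in this comparison. Kcnd2 came close, at 2.27 times (1.69 to 3.04) and 1.98 times (1.39 to 2.80) its cortical level. The others were at 1.82 and 1.10 times (Kcnj4), 1.37 and 1.48 times (Kcnq3) and 1.48 and 1.20 times (Kcnq5).

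The 20 on the cortical side came from most families. They were Kcna3 and Kcna6 (Kv1), Kcnab3 (Kv beta), Kcnb2 (Kv2), Kcnc2 and Kcnc4 (Kv3), Kcnd3 and Kcnip1 (Kv4 and its KChIP1 subunit), Kcnf1 and Kcns1 (silent subunits), Kcnh7 (EAG), Kcnj3, Kcnj6, Kcnj9 and Kcnj12 (inward rectifiers), Kcnk4, Kcnk9, Kcnk10 and Kcnk12 (tandem pore), and Kcnmb4 (a BK channel beta subunit). The list holds Kcnj3, Kcnj6 and Kcnj9, which encode the G protein-gated subunits GIRK1, GIRK2 and GIRK3.

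Kcnj3 had 246 and 173 CPM in cortical spots and 37.1 and 42.3 in striatal spots, 6.62 and 4.09 times higher in the cortical. Kcnj9 had 342 and 260 CPM against 115 and 75.2, 2.98 and 3.45 times. Kcnc2, a Kv3 channel of fast-spiking interneurons, had 210 and 189 CPM against 54.0 and 23.5, 3.89 and 8.02 times. These genes were therefore lower in striatal spots while Kcnab1, Kcna4 and Kcnip2 were higher.

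Kcnc4 had 207 and 230 CPM against 43.9 and 47.0, 4.71 and 4.89 times. Kcnk12 had 99.96 and 65.3 CPM against 10.1 and 9.41, 9.87 and 6.94 times, from 3 and 2 striatal UMIs. Kcnk4 had 1 and 3 striatal UMIs, and its striatal level was 0.0408 (0.00102 to 0.235) and 0.284 (0.0559 to 0.901) times the cortical. The intervals of Kcna3, Kcnb2, Kcnd3, Kcnip1, Kcnj6 and Kcnj12 reached 1 in at least 1 library. After thinning 2 members were on the cortical side, and the share of all genes was not computed there.

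**Figure D3:**
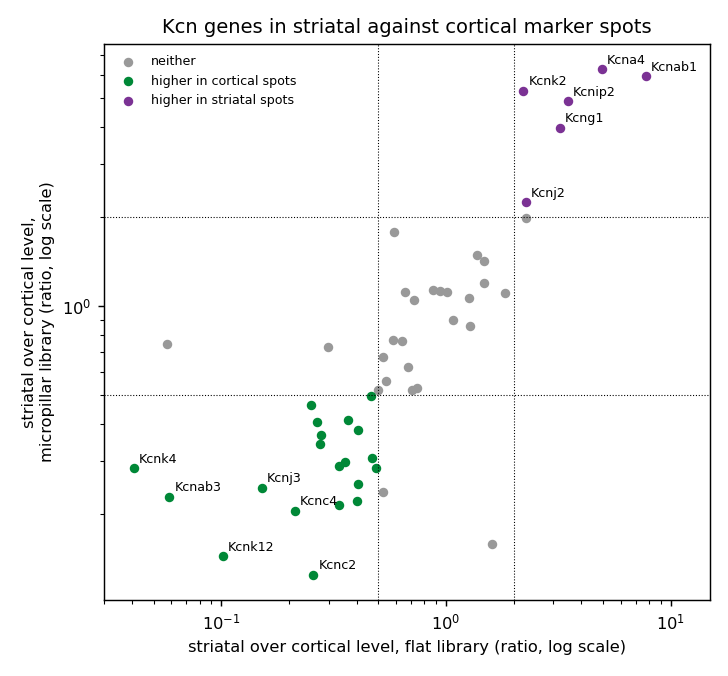
Striatal over cortical level of Kcn genes with at least 30 UMIs in these spots, flat library on the x axis and micropillar library on the y axis, both log scales without intervals; dotted lines mark 2-fold either way. The 6 striatal members lie in the upper right corner and the 20 cortical members in the lower left; a member with 0 UMIs in 1 of these sets of spots cannot be drawn on a log axis.

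In white matter marker spots no member met the 2-fold rule in both libraries, against 1.66% of all genes, and with the 10-UMI condition none did, against 1.09%. The members' median ratio was 0.935 and that of all genes 0.958. Closest were Kcnj10, the glial inward rectifier Kir4.1, and Kcnk10, the leak channel TREK-2, both named after their values were seen. Kcnj10 had 199 CPM (123 to 305) and 240 (177 to 317), 2.03 (1.23 to 3.18) and 1.94 (1.41 to 2.62) times the other spots. Kcnk10 had 209 CPM (131 to 316) and 191 (136 to 261), 2.68 (1.64 to 4.20) and 1.90 (1.33 to 2.66) times.

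Kcna6, the Kv1 member with the most UMIs, had 418 CPM (303 to 561) in white matter spots of the flat library and 328 (254 to 416) in the micropillar library, 1.93 and 1.61 times the others. Kcnn2, a small-conductance calcium-activated channel and the most counted of its family, had 94.9 CPM (45.5 to 175) and 152 (103 to 215), 1.53 and 2.04 times. The count of 0 changed with the class limits and the weight per spot. With a marker score of at least 3, 5 members met the rule (Kcna7, Kcng2, Kcnj5, Kcnj10 and Kcnn2). With each spot given equal weight 3 did (Kcnj10, Kcnk10 and Kcnn2). The share of all genes was not computed under either setting. Even in the larger main class, Kcna7 had a UMI in only 3 flat spots and 1 micropillar spot. Kcnj10 was 2.69 and 2.31 times the other spots at a score of at least 3.

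In choroid plexus marker spots 2 of 67 members (2.99%) met the rule, against 6.40% of all genes, and 1 (1.49%) had at least 10 UMIs there, against 2.19%. The members' median ratio was 0.519 and that of all genes 0.876. Kcnk1, the leak channel TWIK-1, had 304 CPM (139 to 578) and 190 (86.8 to 360), from 9 UMIs in each library, 3.47 (1.56 to 6.72) and 2.61 (1.18 to 5.05) times the other spots. The other was Kcnu1, a channel known from sperm, with 1 and 2 UMIs and ratios of 3.15 (0.0765 to 19.3) and 4.25 (0.493 to 16.7).

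Kcnj13, the inward rectifier Kir7.1 of the choroid plexus apical membrane (chr1:87386363-87394729, minus strand), was under the minimum with 21 UMIs and is named after its values were seen. Choroid plexus spots held 7 of its 10 UMIs in the flat versus 8 of its 11 in the micropillar library. Its level there was 237 CPM (95.1 to 488) and 169 (72.8 to 332), against 1.34 and 0.960 in the other spots. The ratio was 176 (40.2 to 1056) and 176 (42.2 to 1029). Striatal and cortical spots had 1 Kcnj13 UMI each in the flat library and none in the other, and white matter spots had none and 1. White matter markers were present in choroid plexus spots at 9533 and 8689 CPM and striatal markers at 4395 and 3079 CPM, and their part in the Kcn levels of that class was not tested.

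In muscle marker spots 4 of 67 members (5.97%) met the rule, against 5.21% of all genes, and 2 (2.99%) had at least 10 UMIs, against 2.40%. These shares are near the background. The members' median ratio was 0, since most had no UMI there, and that of all genes 0.405. The class differed between the libraries, with muscle markers at 164560 CPM in the flat and 89712 CPM in the micropillar library. The markers of the bone class were present there at 7345 and 12873 CPM, and their part in these counts was not tested. Kcna7, the Kv1.7 channel of skeletal muscle and heart (chr7:45405653-45409763, plus strand), had 11 UMIs and 238 CPM (119 to 425) in the flat library versus 1 UMI and 99.8 CPM (2.53 to 556) in the micropillar library. The other spots had 5.86 and 4.43 CPM, so the ratio was 40.5 (16.4 to 98.0) and 22.5 (0.533 to 148). It had fewer than 30 UMIs outside muscle spots and was counted only through them.

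Kcnj11, the Kir6.2 pore of ATP-sensitive channels, had 11 UMIs and 238 CPM (119 to 425) and 3 UMIs and 299 CPM (61.7 to 875), 2.33 (1.15 to 4.25) and 4.05 (0.829 to 12.0) times. Kcnj2 met the rule with 6 and 2 UMIs. The Kv2, Kv4 and EAG families had no UMI in muscle spots of either library, where 1 UMI is worth 21.6 and 99.8 CPM and a count of 0 allows up to 64.8 and 299 CPM. With at least 500 UMIs per spot and the classes drawn anew, no member met the rule, and the pooled Kcna7 ratio was 12.6.

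In skin marker spots 2 of 67 members (2.99%) met the rule, against 17.0% of all genes, and both had at least 10 UMIs, against 16.0%. Over the members the median ratio was 0.125, and over all genes 0.897. Both were tandem-pore genes. Kcnk7 (chr19:5704367-5707109, plus strand), a member with no known current of its own, had 10 UMIs and 63.3 CPM (30.4 to 116) in the flat versus 12 UMIs and 51.9 CPM (26.8 to 90.7) in the micropillar library, 22.2 (7.31 to 74.4) and 21.8 (7.93 to 65.4) times the other spots. Skin spots held 62.5% and 63.2% of its UMIs, and cortical spots held none. Kcnk7 thus reached 30 UMIs only through skin spots.

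Kcnk6, TWIK-2 (chr7:29221926-29232515, minus strand), had 18 UMIs and 114 CPM (67.5 to 180) and 32 UMIs and 138.5 CPM (94.7 to 195.5) in skin spots, 10.9 (5.51 to 21.3) and 8.67 (5.36 to 13.9) times the other spots. It had a UMI in 17 of 322 and 29 of 320 skin spots, and in 6 of 397 and 7 of 341 cortical spots, which were deeper. The tandem-pore family gave 43 of the 144 Kcn UMIs of skin spots in the flat library versus 60 of 227 in the micropillar library.

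In type I collagen spots 1 of 67 members (1.49%) met the rule, against 11.8% of all genes, or 8.65% with at least 10 UMIs. Over the members the median ratio was 0.157, and over all genes 0.789. That member was again Kcnk6, with 3 and 7 UMIs, 44.4 CPM (9.15 to 130) and 67.7 (27.2 to 139), 2.63 (0.519 to 8.31) and 2.89 (1.12 to 6.26) times the other spots. At a marker score of at least 3, and with equal weight per spot, Kcnk6 did not meet the rule and Kcnk13, another tandem-pore gene, did (3.17 and 2.52 times, and 2.77 and 4.56 times). Skin markers were present in these spots at 1212 and 1102 CPM, and their part in the Kcnk6 level was not tested. Kcnn4, the intermediate-conductance calcium-activated channel of blood cells, was under the minimum and is named after its values were seen, with 4 and 2 UMIs and 59.1 CPM (16.1 to 151) and 19.3 (2.34 to 69.8). Without the collagen genes as markers 5 and 14 spots were left, and no member met the rule.

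Genes outside the Kcn symbols that act beside these channels were read by the same rule, 47 of 48 listed being in the gene list and 34 with enough UMIs. None of the 8 Kv1 partners with enough UMIs, of Dpp6 and Dpp10 (the other Kv4 auxiliary subunits), or of 2 BK gamma or sulfonylurea receptor genes met it in any of the 7 classes. In cortical and striatal spots 1 of 34 each met it, near the shares of all genes given above. The striatal one was Scn4b, a sodium channel beta subunit, with 800 and 555 CPM in striatal spots (14.0 and 13.4 times the others).

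In white matter, choroid plexus and muscle spots 1 of 34 each met it, against 1.66%, 6.40% and 5.21% of all genes. Those that met it included Hcn3, a pacemaker channel, in white matter spots. In choroid plexus spots it was Slc12a4, a potassium-chloride cotransporter with 2 UMIs in each library. In skin spots 3 met it, Atp1b3, Slc12a4 and Slc12a7, and in type I collagen spots 3, Slc12a4, Slc12a7 and Scn7a, both counts below the 17.0% and 11.8% of all genes. Atp1b3, a sodium-potassium pump subunit, had 260 and 299 CPM in skin spots, 3.69 and 3.72 times the others.

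The libraries were compared over the whole section as the log2 ratio of micropillar over flat CPM, with 1 CPM added to each. Of 67 members 6 (8.96%) were at least 1.5-fold higher in the micropillar library, against 8.12% of 11328 genes, and 8 (11.9%) were at least 1.5-fold lower, against 3.48%. The members' median was -0.08 and that of all genes 0.05. The summed Kcn level was 0.905 times the flat one (0.883 to 0.927). Within classes that ratio was 0.923 in cortical and 0.916 in striatal spots (0.856 to 0.980), 1.17 in white matter spots (1.05 to 1.31) and 1.58 in type I collagen spots (1.16 to 2.17). In choroid plexus (1.17), muscle (0.937) and skin spots (1.08) the interval included 1. With each spot given equal weight, 14 members (20.9%) were higher and 5 (7.46%) lower and the median was 0.14, against 11.6% and 7.42% of all genes and a median of 0.07.

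The 6 higher members were Kcna3, Kcnh2, Kcnk13, Kcnj5, Kcnip1 and Kcnd3. Kcna3, the Kv1.3 channel known from lymphocytes and microglia, had 64 UMIs and 28.3 CPM in the flat library versus 170 UMIs and 53.6 CPM in the micropillar library, for a log2 ratio of 0.90. Kcnh2, the erg channel, had 44 and 109 UMIs and a log2 ratio of 0.79. Kcnd3, the Kv4.3 pore, had 123 and 272 UMIs (0.65), and Kcnip1 had 91 and 202 (0.65). The intervals of Kcnj5 (15 and 36 UMIs) and Kcnk13 (13 and 32 UMIs) included a ratio of 1, and with equal weight per spot the log2 ratio of Kcnj5 was -0.40.

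The 8 lower members included Kcns3, Kcnv1, Kcna7, Kcnj16, Kcng1, Kcnk4 and Kcnh7. Kcnv1 had 248 UMIs and 109.6 CPM in the flat library versus 144 UMIs and 45.4 CPM in the micropillar library, for a log2 ratio of -1.25 and a plain ratio of 0.414 (0.335 to 0.511). Kcns3, another silent subunit, had 26 and 11 UMIs (-1.48), Kcnj16 had 20 and 15 (-0.78, with an interval that included a ratio of 1) and Kcng1 had 34 and 27 (-0.75). Kcna7 had 24 and 15 UMIs (-1.02), and muscle spots numbered 245 in the flat versus 30 in the micropillar library; the part of that difference was not tested. Kcnk4 had 98 and 86 UMIs (-0.66), but with equal weight per spot its log2 ratio was 0.067. Kcnab1, the most counted member, had a ratio of 0.727 (0.671 to 0.788), short of 1.5-fold.

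**Figure D4:**
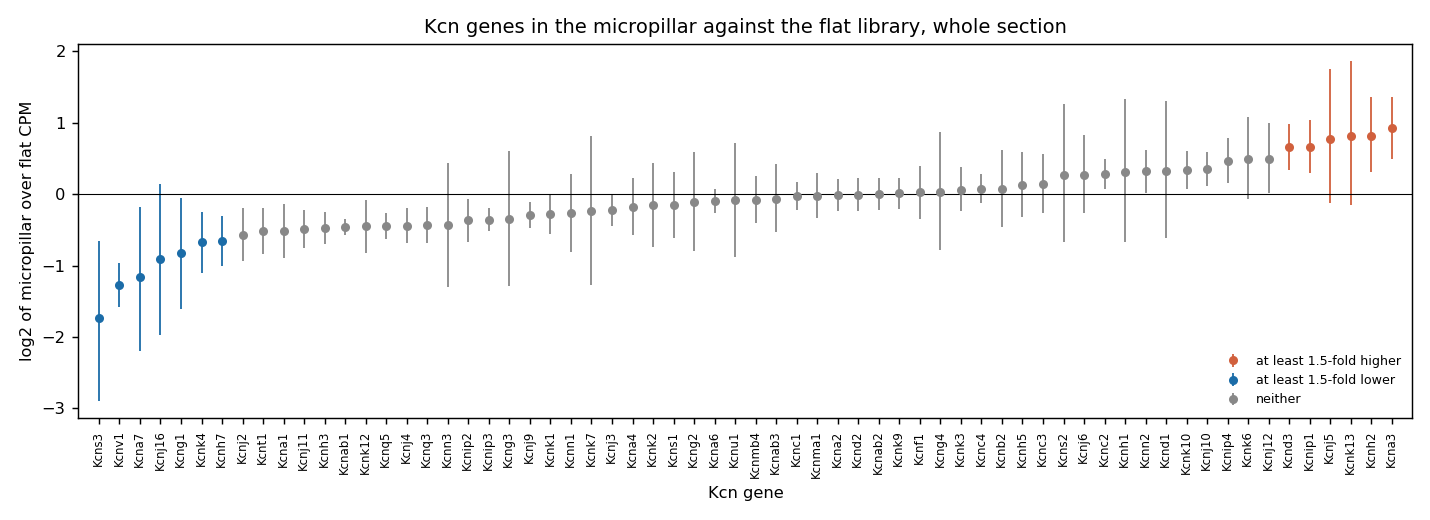
Log2 ratio of micropillar over flat CPM over the whole section (no pseudocount) for the members with at least 30 UMIs that are reported here, ordered by ratio, with exact 95% intervals that cover counting error only. Colours mark the 6 members at least 1.5-fold higher (orange) and the drawn members at least 1.5-fold lower (blue) once 1 CPM was added; Kcns3 and Kcnv1 lie lowest and Kcna3 highest.

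Since the sections held different shares of tissue, the libraries were also compared within cortical marker spots. Of 50 members 3 were at least 1.5-fold higher in the micropillar library, against 6.20% of 7046 genes, and 5 were lower, against 4.66%. The median was -0.11 and that of all genes 0.02, and the summed level was 0.923 times the flat one (0.887 to 0.960).

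Kcnv1 was lower here too, with 163 and 70 UMIs, a log2 ratio of -0.91 and a plain ratio of 0.530 (0.395 to 0.706). In striatal spots it had 29 UMIs and 97.9 CPM (65.5 to 141) in the flat versus 5 UMIs and 23.5 CPM (7.64 to 54.9) in the micropillar library. Its white matter levels, 19.0 and 19.6 CPM, came from 2 and 4 UMIs. Kcnk4 (72 and 35 UMIs, -0.72), Kcnk12 (87 and 46, -0.61) and Kcna1 (74 and 39, -0.61) were also lower, as was Kcnn1 (30 and 15, -0.67), whose interval included a ratio of 1.

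Kcna3 (24 and 35 UMIs, 0.83) and Kcnh2 (11 and 21 UMIs, 1.18) were higher in cortical spots as over the section, and Kcnj6 (22 and 30 UMIs, 0.73) was higher with an interval that included a ratio of 1. Among the cortical markers, which chose these spots, Neurod6 differed by a log2 ratio of 1.42 and Tafa1 by -0.50, and the other 8 lay between -0.08 and 0.33. Whether these spots were drawn from like parts of the cortex in both sections was not tested.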

How the data were processed

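The authors deposited 1 matrix a library with the count of UMIs for every gene in every spot, as whole numbers without scaling. The upstream tool is Space Ranger 2.0.1 per the file headers, but Cell Ranger 7.2.0 with mm10 per the submitters' processing notes; aligner settings are not given there. For 11 symbols with 2 rows each, the row of the larger sum stood for the gene.

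The members, markers and gene lists were chosen with earlier results of these data known. A spot joined the class whose marker UMIs most exceeded their mean share, given a score of at least 1.5 and at least 3 UMIs of at least 2 markers, with 106 markers listed and 1 not in the gene list. Thalamic, hypothalamic and marrow markers kept such spots out of the 7 classes. Genes had at least 30 UMIs, and markers were left out of the comparisons between classes of spots but not of those between libraries. Intervals are exact Poisson for levels and exact binomial for ratios. A count of 0 allows up to 3 counts. Doublets were not called, as spots hold several cells, and positions were not used.

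Named genes were, by rule, up to 5 members per class that met the 2-fold rule with at least 10 UMIs, the 6 highest and lowest by library, and per channel family the most counted member and those that met the 2-fold rule; others are said to be chosen after seeing values. Alternatives covered the marker score, thinning, weight per spot, minima, pseudocount, folds, and edgeR 4.0.16 TMM and DESeq2 1.42.0 size factors. On simulated data the scripts gave median ratios near those put in, and a gene exactly at the 2-fold limit often missed it by counting error. Software was Python 3.11.15, numpy 2.4.6, scipy 1.17.1 and R 4.3.3. Some genes that these rules select are not reported here.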

Additional observations from a re-analysis of the deposited data

Results flagged for a closer look

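Spots under 100 UMIs, which no comparison used, held Kcn UMIs above the limit that a count of 0 allows. In the flat library 480 such spots had 46 Kcn UMIs, or 2004 CPM (1468 to 2673), where 0 would allow up to 130.7 CPM. In the micropillar library 239 such spots had 48, or 3128 CPM (2307 to 4145), where 0 would allow up to 195.5 CPM. Both levels lay below those of the kept spots.

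Thalamic marker spots, found in the micropillar library alone, were outside the 7 classes. Their 19 spots had 138 Kcn UMIs, or 4994 CPM (4195 to 5900), and the flat library had no such spot.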

How the results depend on the processing

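No paired analysis was possible because each group has 1 library, and none could be left out. Of the counts and summed ratios, 78 of the alternative values stayed close to the main ones, 51 moved and 1 changed sign. Of the values for single genes 138 stayed within their interval and 16 moved out of it. A further 1 changed sign where its main interval excluded a ratio of 1. With no regard to that interval, log2 ratios by library changed sign for Kcnk4 (0.067) and Kcnj5 (-0.40) with equal weight. In cortical spots the same held for Kcnip1 (-0.34 at 500 UMIs per spot, main 0.16). The causes were not tested. Thinning and higher minima leave fewer spots or genes in all, but the classes were also drawn anew from the spots left. Micropillar muscle spots numbered 30 in the main setting, 33 after thinning and 31 at 500 UMIs per spot. The summed ratio of class over other spots, main 1.44 cortical, 1.498 striatal, 0.969 white matter, 0.694 choroid plexus, 0.296 muscle, 0.182 skin and 0.237 bone, was 1.37 cortical and 0.874 white matter at a score of at least 3. After thinning to 250 UMIs it was 1.22 cortical, 0.562 choroid plexus, 0.203 skin and 0.320 bone. With equal weight it was 1.74 cortical, 1.89 striatal, 1.17 white matter, 0.834 choroid plexus and 0.212 skin. At 500 UMIs per spot it was 1.32 cortical, 1.42 striatal, 0.706 muscle and 0.521 bone, and without collagen markers 0.517 bone. Counts of members higher in a class, main 8, 11, 0, 2, 4, 2 and 1 in the same order, were 5 in white matter at a score of 3. Thinning gave 3 cortical, 1 white matter and 2 muscle, and equal weight 15 cortical and 3 white matter. At 500 UMIs they were 5 cortical, 2 white matter, 0 muscle, 1 skin and 0 bone, and without collagen markers 0 bone. The 1 bone member was Kcnk13 in place of Kcnk6 at a score of 3 and with equal weight. At 3-fold they were 1 cortical, 4 striatal, 1 choroid plexus, 2 muscle and 0 bone, and for genes with at least 100 UMIs 1 choroid plexus and 1 skin. Of the 20 members higher in cortical than striatal spots, thinning left 2, 3-fold 6 and 100 UMIs per gene 13. For these counts by class of spots, the share of all genes was computed under the main setting only. By library over the section (6 higher, 8 lower), equal weight gave 14 and 5 with a median of 0.14 in place of -0.08, a pseudocount of 5 CPM 5 lower, 100 UMIs per gene 4 lower, and 2-fold 0 and 3. In cortical spots (3 higher, 5 lower) the pseudocount of 5 gave 3 lower, 100 UMIs per gene 0 higher, no minimum 10 and 14, 500 UMIs per spot 2 lower, and 2-fold 1 and 0. TMM and DESeq2 scaling kept every count within 1.5 times.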

Other observations

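Hypothalamic marker spots, 129 flat and 180 micropillar, had summed Kcn levels of 3680 CPM (3353 to 4030) and 3798 (3584 to 4022), below the other kept spots in both libraries. Kcnip1, which encodes the KChIP1 subunit of Kv4 channels, had 150 CPM (90.5 to 235) and 110 (76.4 to 154) there, 4.46 and 1.88 times the other spots. Kcnk9, an acid-sensitive leak channel, had 285 CPM (199.6 to 394) and 204 (157 to 261), 2.36 and 1.66 times. Kcnh2 had 5 and 20 UMIs, 2.17 and 2.09 times. These genes were chosen after their values were seen.

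In the 19 thalamic marker spots of the micropillar library Kcnc2, a fast Kv3 channel, had 13 UMIs and 470 CPM (250.5 to 804), 2.80 times the other spots (1.48 to 4.83). Marrow marker spots, 21 and 25, had summed Kcn levels of 1288 CPM (556 to 2538) from 8 UMIs and 3220 (2674 to 3845) from 122. White matter markers were at 0 in the flat marrow spots and at 3035 CPM in the micropillar marrow spots, and their part in the difference was not tested.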
